A study of Mus musculus with 4 samples.

Results

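The 30 protein-coding genes described here encode lysosomal enzymes, lysosomal membrane proteins and their transcriptional regulators, and they were selected by name from the 55487 genes of an RNA-seq table of mouse neural stem cells. All 30 were found. They comprised 9 proteases, 9 glycosidases, 2 lipid hydrolases, an activator precursor and a granulin precursor, 6 membrane proteins and 2 transcription factors. Cells were primary cultures from embryonic neocortex, labelled as neural cells from brain, and 1 library was made per group. The control, labelled wild type, was Tut1f/f cells that received an empty lipid nanoparticle (LNP). The Tut1 KO was Tut1f/f cells, the Trp53 KO was p53f/f cells and the double KO was Tut1f/f;p53f/f cells, and all 3 received Cre-LNP, a nanoparticle that carries mRNA for Cre recombinase, and were taken 3 days later. The f/f alleles are floxed, so that Cre removes part of the gene. TUT1 is a terminal uridylyltransferase that acts on U6 snRNA, and Trp53 encodes p53. With 1 library per group there was no replicate error, and no p-value, SD or test is given. The values are TPM, the standard unit of transcript share, which are scaled by gene length so that genes can be compared within a library, and the read depth behind them is unknown. Where values of a gene follow each other without a name, the control comes first, then the Tut1 KO, then the Trp53 KO and last the double KO.

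Lysosomes are acidic organelles that degrade proteins, glycans and lipids delivered by endocytosis and autophagy. Soluble hydrolases reach them on mannose 6-phosphate receptors, the V-ATPase pumps in protons, and heavily glycosylated membrane proteins line the limiting membrane. TFEB and TFE3 are basic helix-loop-helix factors that enter the nucleus when the kinase mTORC1 is less active and bind E-box-like sites, known as CLEAR elements, in the promoters of many lysosomal genes. In the developing brain, loss of several of these hydrolases causes storage disease.

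Promoter sequences were examined first, because the E-box is the sequence through which TFEB and TFE3 act on these genes. RefSeq windows on GRCm38.p6, reaching 250 bases before and 50 bases into the transcript for 300 in all, were matched for 27 of the 30 genes, with 34 windows. Ctsb, Ctsh and Asah1 had no entry. The palindrome CACGTG was present in 11 of the 34 windows (32.4%), each from a different gene, against 7.15% of all 32851 windows and 10.4% of the 8804 windows of genes tested in this table. Extended by 1 base to TCACGTG on either strand, which overlaps CACGTG, it was present for 9 genes (26.5% of windows, against 3.77% of all and 6.36% of windows of tested genes). The full 8 letters TCACGTGA occurred for 5 genes, Cln3, Ctsa, Ctsd, Gla and Mcoln1 (14.7% of windows, against 0.974% and 2.21%). These are matches of letters, not measured binding. Stretches before the RefSeq start are printed 5′ to 3′ on the gene's strand, with the site in capitals. The genes shown are Lamp1, which had the most sites, Glb1 and Gaa for the glycosidases, Lgmn for the proteases, and Ctsf, whose level differed most among the libraries. These 5 overlap no exon of GENCODE M21, and they lie at chr8:13159085-13159160 (plus strand), chr9:114401015-114401050 (plus strand), chr11:119267808-119267843 (plus strand), chr12:102439121-102439156 (minus strand) and chr19:4855071-4855106 (plus strand). For the 5 genes with the full 8 letters the stretch overlaps an exon of another annotated transcript, of the same gene or, for Gla, of Hnrnph2, and at most 30 bases around 1 site are given, at chr2:164833749-164833772 (plus strand), chr7:142387908-142387937 (minus strand), chr7:126583340-126583369 (minus strand), chr8:3500462-3500491 (plus strand) and chrX:134601215-134601244 (minus strand).
Lamp1: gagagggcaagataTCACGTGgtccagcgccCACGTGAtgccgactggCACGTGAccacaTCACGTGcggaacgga
Glb1: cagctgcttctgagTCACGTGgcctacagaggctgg
Gaa: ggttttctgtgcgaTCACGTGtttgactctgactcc
Lgmn: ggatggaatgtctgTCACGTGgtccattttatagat
Ctsf: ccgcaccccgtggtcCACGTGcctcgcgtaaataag
Ctsa: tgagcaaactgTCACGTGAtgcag
Ctsd: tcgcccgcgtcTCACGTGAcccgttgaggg
Cln3: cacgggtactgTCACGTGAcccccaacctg
Mcoln1: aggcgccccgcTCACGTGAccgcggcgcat
Gla: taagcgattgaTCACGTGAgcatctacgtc

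Lamp1 held 4 sites within its last 76 bases before the start. Mcoln1, Cln3, Ctsd and Gla each held 2 sites, and Ctsa had another in the window after its start. Ctsf held CACGTG without the flanking T or A. Glb1, Gaa and Lgmn held 1 TCACGTG each, and Ctsl held CACGTG alone.

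Several facts of the libraries bear on every comparison below. Tut1 itself was at 12.2 TPM in control cells but 29.8 TPM in the library labelled Tut1 KO, against 12.5 and 13.7 TPM in the remaining pair, so it was not lower in either library labelled as lacking it. A gene-level TPM also counts exons outside the deleted part and does not read the deletion. Trp53 was at 119.9, 100.4, 39.7 and 41.9 TPM in the same order. Xist, the RNA of the inactive X chromosome, was at 188 and 204 TPM in the Tut1 KO and Trp53 KO and near 0 in the others, where alone the Y-linked genes Ddx3y, Eif2s3y, Kdm5d and Uty were above 0. Each comparison except double KO against control therefore set an Xist-expressing against a Y-expressing library, which could not be told apart from the label. Between double KO and control Y-linked levels were unequal as well, with Kdm5d at 12.4 against 5.54 TPM and Eif2s3y at 34.9 against 62.0 TPM. The 3 knockouts also differed from the control in receiving Cre. Of 10 neural stem cell markers, 10 were at 10 TPM or more in each library. Microglia and macrophages are rich in lysosomes, and of their 12 markers 8 (Cx3cr1, Tmem119, Aif1, C1qa, C1qb, Trem2, Tyrobp and Itgam) were listed at 0 in all libraries, with summed levels of 5.12 to 8.22 TPM that were mostly Cd68. Summed fibroblast and endothelial markers were at 0.30 to 0.50 and 0.70 to 1.17 TPM. Summed neuron markers were at 241, 166, 212 and 219 TPM, of which Map2 made up 208, 141, 181 and 191 TPM. Summed astrocyte markers were at 345 to 439 TPM and those of the oligodendrocyte lineage, mostly Olig1 and Olig2, at 1511 to 1698 TPM. The part of these cell types in the differences below was not tested.

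All 30 lysosomal genes were expressed. Their summed level was 2104 TPM in control cells and 2393, 2248 and 2240.1 TPM in the knockouts, or 0.210% to 0.239% of each library. The membrane proteins supplied 40.3% to 41.3% of this sum, the proteases 23.3% to 26.2% and the glycosidases 10.7% to 12.1%. Just 4 genes, Psap, Cd63, Lamp1 and Ctsd, made up 55.3% of the sum in the control and 60.1% in the Tut1 KO, while the remaining genes summed to 941, 954, 984 and 946 TPM. The higher sum of the Tut1 KO was thus carried mainly by these 4 abundant transcripts.

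**Figure D1:**
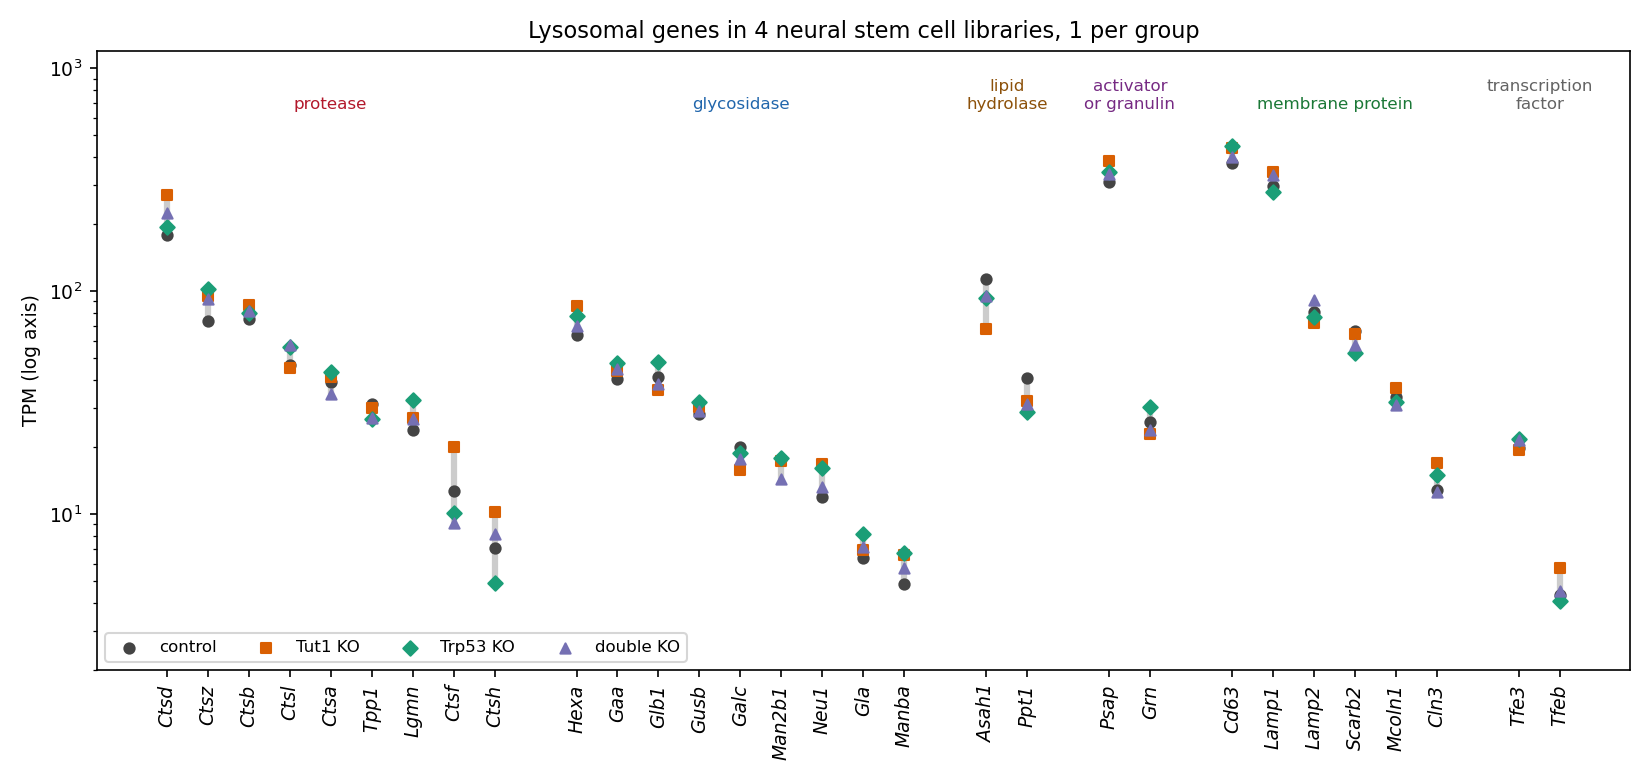
TPM (vertical log axis) of the 30 genes in each of the 4 libraries, by class and in order of mean level, with the grey bar joining the lowest and highest library. Levels run from 4.08 TPM for Tfeb to 449 TPM for Cd63, and for most genes the 4 points nearly coincide, with wider bars for Ctsf, Ctsh, Asah1 and Ctsd.

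Among the proteases, the aspartic protease Ctsd was the most abundant in every library, with 179.7 TPM in control cells and 271 TPM in the Tut1 KO. The Trp53 KO had 194 TPM and the double KO 225 TPM. Both libraries with the Tut1 label were above both without it. Ctsd shares 34.4% of its exon bases with the overlapping annotated gene Gm49369, which was listed at 0 in 3 libraries and at 4.45 TPM in the Trp53 KO, and adding it gave 198 TPM there and left the order unchanged. The differences in log2(TPM + 1) were 0.59 for Tut1 KO minus control and 0.21 for double KO minus Trp53 KO.

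The cysteine protease Ctsh, an aminopeptidase, was at 7.07, 10.2, 4.91 and 8.14 TPM in the same order of libraries. It too was higher in both Tut1-labelled libraries, by 0.47 and 0.63, the latter being the largest difference of any member in double KO minus Trp53 KO. In that comparison it lay under the minimum of 10 TPM. Ctsb, the main cysteine cathepsin of many cells, varied little (75.2, 86.5, 79.9 and 81.6 TPM) but was also higher in both Tut1-labelled libraries, with differences of 0.20 and 0.03, the second of which turned to -0.026 after correction for GC content and length.

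Ctsf, another cysteine cathepsin, was at 12.8 TPM in control cells and 20.1 TPM in the Tut1 KO. The Trp53 KO had 10.1 TPM and the double KO 9.10 TPM. The Tut1 KO alone was high, and the double KO, with the same label, was lowest. Ctsf was 0.62 higher in Tut1 KO minus control but 0.13 lower in double KO minus Trp53 KO, and its value of -1.06 in double KO minus Tut1 KO was the sole member difference past 1 in any comparison. It was short of 1 with a pseudocount of 5 and after correction for GC content and length.

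Other proteases were arranged differently. Ctsz, a carboxypeptidase, was lowest in the control at 73.6 TPM and at 94.9, 102 and 92.7 TPM in the knockouts. Lgmn, the asparaginyl endopeptidase that processes cathepsins, was likewise lowest in the control (23.8 TPM, then 27.1, 32.6 and 26.6). Ctsl, which shares 6.09% of its exon bases with the pseudogene Gm49230, was at 46.5 and 45.3 TPM in the control and Tut1 KO and at 56.4 and 57.5 TPM with the Trp53 label. The serine carboxypeptidase Ctsa, which also protects Neu1 and Glb1 from degradation, was at 39.3, 41.4, 43.5 and 34.5 TPM, and the tripeptidyl peptidase Tpp1, mutated in a neuronal ceroid lipofuscinosis, at 31.4, 29.9, 26.7 and 27.0 TPM.

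Most glycosidases were lower in the control than in the knockouts. Hexa, the alpha subunit of the ganglioside-cleaving hexosaminidase, was the most abundant at 63.5, 85.9, 77.4 and 70.0 TPM. The sialidase Neu1 followed the same order at 11.9, 16.8, 16.1 and 13.2 TPM. The double KO was thus nearer to the control than either single knockout for both genes. Manba, the beta-mannosidase, was at 4.86, 6.54, 6.67 and 5.73 TPM, under the minimum of 10 TPM throughout.

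Gaa, the acid alpha-glucosidase that digests glycogen, was at 40.4, 44.0, 47.6 and 44.6 TPM. Gusb, the beta-glucuronidase, ranged from 28.2 TPM in the control to 32.003 in the Trp53 KO, and the X-linked alpha-galactosidase Gla from 6.36 to 8.14 TPM in the same libraries. In 6 of the 9 glycosidases (Gaa, Hexa, Neu1, Gusb, Manba and Gla) all 3 Cre-treated libraries were above the control, in a split that rests on 1 control library. The share was 17.5% of all genes with at least 10 TPM in a library, a level that Manba and Gla did not reach. Conversely, Glb1, the beta-galactosidase whose exons overlap Tmppe over 5.49% of their bases, was at 41.3, 36.2, 48.1 and 38.3 TPM, and Man2b1, the alpha-mannosidase, at 17.7, 17.3, 17.8 and 14.3 TPM. Galc, which cleaves the myelin lipid galactosylceramide, was at 20.04, 15.8, 18.8 and 17.6 TPM. These 3 were lower in both Tut1-labelled libraries than in the others, as for 17.1% of all genes. In Tut1 KO minus control the GC and length correction put Galc at 0.10 and Man2b1 at 0.017, turning both directions, and quantile normalization put Man2b1 at 0.094.

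In double KO minus Trp53 KO all 9 glycosidases were below 0, from -0.32 for Glb1 to -0.09 for Galc with a median of -0.17, while the median of all 8976 genes tested was 0.05. None was above 0 under any of the 6 other scalings and pseudocounts tried. The same Tut1 label with Trp53 intact gave another picture, since 6 of 9 glycosidases were above 0 in Tut1 KO minus control (median 0.10, all genes -0.09). In Trp53 KO minus control 8 of 9 were above 0 (median 0.23, all genes -0.05), with Galc at -0.09 the exception, and the GC and length correction put Galc at 0.074 and thus 9 of 9 above 0. The first and the last of these comparisons share the Trp53 KO library, the second and the last share the control, and they are not independent. Manba and Gla enter these glycosidase counts although they were under the minimum of 10 TPM throughout. No glycosidase differed by 2-fold in any comparison.

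Both lipid hydrolases were highest in the control. Asah1, the acid ceramidase, was at 113 TPM in control cells and 67.9 TPM in the Tut1 KO. The Trp53 KO had 93.3 TPM and the double KO 95.5 TPM. Its difference of -0.73 was the largest of any member in Tut1 KO minus control and became -0.51 after correction for GC content and length, while for the other comparison of the Tut1 label it was 0.03. Ppt1, the palmitoyl-protein thioesterase, was at 40.7, 32.4, 28.7 and 31.2 TPM, and its -0.49 was the lowest of Trp53 KO minus control. Psap, the precursor of the saposins that present lipids to these enzymes, was at 310.4, 384, 342 and 337 TPM. Grn, the progranulin precursor, was at 26.0, 22.9, 30.1 and 23.8 TPM and was lower with the Tut1 label in both backgrounds, with differences of -0.18 and -0.33.

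Membrane proteins had the highest summed level of the classes and were among the least variable. Cd63, a tetraspanin of late endosomes, was at 377, 441, 449 and 401 TPM. Lamp1, the main glycoprotein of the lysosomal membrane and the gene with 4 E-box sites, was at 296, 344, 280.1 and 331 TPM and was 0.22 and 0.24 higher in the 2 comparisons of the Tut1 label. Lamp2, its X-linked relative that takes part in chaperone-mediated autophagy, was at 80.3, 72.0, 77.1 and 91.5 TPM. Within this pair Lamp2 was thus -0.16 in Tut1 KO minus control, where Lamp1 was higher, although after GC and length correction Lamp2 was at 0.23 there. Scarb2, the receptor that carries glucocerebrosidase to lysosomes, was at 66.0, 64.4, 52.8 and 57.4 TPM, lower in both Trp53-labelled libraries. Mcoln1, a calcium channel that signals to TFEB, was at 33.7, 36.9, 31.9 and 30.9 TPM, likewise lower with the Trp53 label. Cln3, mutated in juvenile neuronal ceroid lipofuscinosis, was at 12.9, 16.9, 14.98 and 12.6 TPM, high in both single knockouts and near the control in the double KO.

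The regulators themselves were low. Tfeb was at 4.34, 5.73, 4.08 and 4.52 TPM, the lowest mean level of the 30 genes, and was never at 10 TPM. X-linked Tfe3 was several times higher at 19.7, 19.3, 21.7 and 21.5 TPM, with the smallest spread of all members (0.16 on the log2 scale). RNA level does not report nuclear entry, through which both factors are mainly controlled. Members that held TCACGTG had a median difference of 0.13 in Tut1 KO minus control (9 genes) against 0.04 in the 18 matched members without it, and the Trp53-targeted background gave -0.17 against -0.11. In Trp53 KO minus control the medians were 0.20 and 0.14. Values above 0 in Tut1 KO minus control were found for 8 of the 9 genes with the site and 9 of the 18 without it. The share of all genes above 0 there was 39.3%. After correction for GC content and length Galc, Lamp2, Ctsl, Scarb2, Tfe3, Tpp1 and Man2b1, all without TCACGTG, turned above 0 in that comparison. The counts were 2 of 9 and 6 of 18 in the Trp53-targeted background, and 5 of 9 and 11 of 18 in double KO minus control. In double KO minus Tut1 KO the medians were -0.056 with the site and -0.14 without it. With 1 library per group these gaps were not tested.

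**Figure D2:**
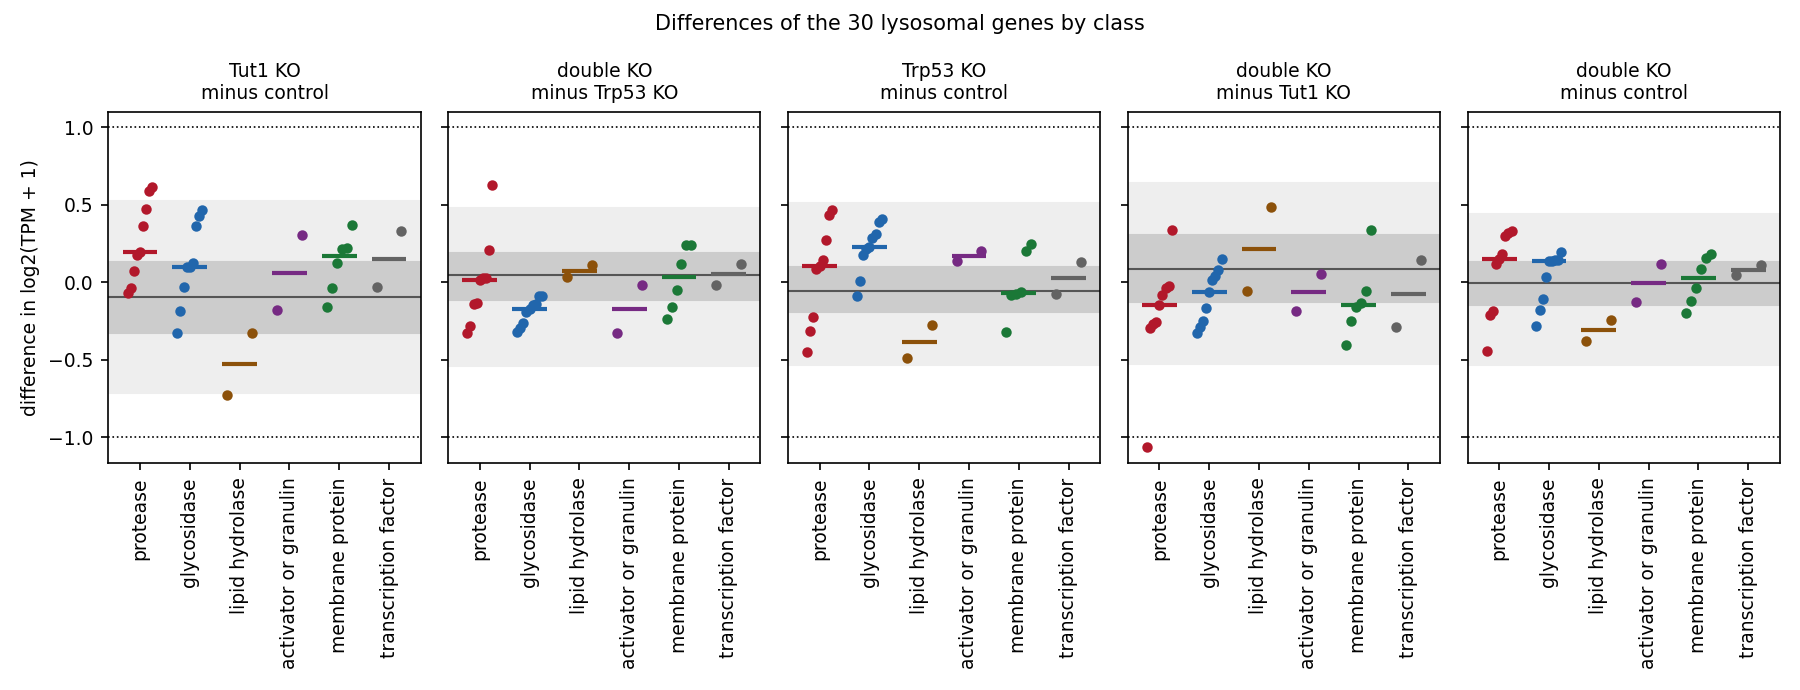
Difference in log2(TPM + 1) of each of the 30 genes (points) by class in the 5 comparisons, with a coloured bar at the class median. The dark and light bands hold the middle 50% and 90% of all genes tested, the grey line is their median and the dotted lines mark 2-fold. The 9 glycosidases lie below 0 in double KO minus Trp53 KO, and 1 point, Ctsf, lies past a dotted line.

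A gene was called where it differed by at least 1 in log2(TPM + 1), or 2-fold, among genes with at least 10 TPM in a library compared. Between Tut1 KO and control 0 of the 27 members tested were called higher and 0 lower, against 1.48% higher and 2.61% lower of 9032 genes. In double KO minus Trp53 KO 0 of 26 were called, against 1.41% higher and 1.79% lower of 8976. The corresponding shares for Trp53 KO minus control were 1.92% higher and 1.91% lower, with 0 of 26 members. For double KO minus Tut1 KO they were 2.13% higher, with 0 of 27 members, and 1.77% lower, with 1 of 27, Ctsf. For double KO minus control they were 1.46% higher and 1.85% lower, with 0 of 26. The members' counts were near these backgrounds. No member was lower by 1 in both comparisons of the Tut1 label, as 0.29% of 9314 genes were.

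Smaller shifts had a direction. The median of the 30 genes was 0.13 in Tut1 KO minus control, where that of all genes was -0.09, and 19 of 30 were above 0, against 39.3% of all genes. In double KO minus Trp53 KO the median was -0.09 (all genes 0.05) with 11 of 30 above 0 (all genes 58.7%). The Tut1 label thus went with members slightly above the other genes in one background and slightly below them in the other. In Trp53 KO minus control the median was 0.14 (all genes -0.05), with 19 of 30 above 0 (all genes 40.1%). For the double KO against the Tut1 KO it was -0.11 (all genes 0.09), with 9 of 30 above 0 (all genes 60.3%). Where the median of all genes was set to 0, the counts above 0 became 24, 7, 19 and 5 of 30. In double KO minus control the members had a median of 0.10 and all genes 0.00, with 18 of 30 above 0 (all genes 49.8%). That median was 0.047 over the autosomal members and 0.063 over the 26 tested.

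Proteases, glycosidases and membrane proteins had medians of 1 sign in 3 of the 5 comparisons. In Tut1 KO minus control their medians were 0.20, 0.10 and 0.17. The values for double KO minus Trp53 KO were 0.01, -0.17 and 0.04. Between Trp53 KO and control they were 0.11, 0.23 and -0.07. Values under 0 in double KO minus Tut1 KO were found for 8 of 9 proteases and 5 of 6 membrane proteins (medians -0.14 and -0.15, with -0.06 for glycosidases), with Ctsl and Lamp2 the exceptions, both at 0.34. After correction for GC content and length Lamp2 was at -0.051 and Ctsl at 0.052, and 0 of 6 membrane proteins and 2 of 9 proteases were above 0. The same correction put the glycosidase median at -0.22, with 2 of 9 above 0 in place of 4. Double KO minus control gave 0.15, 0.14 and 0.03. The medians of 0.01, 0.04 and -0.07 changed sign after correction for GC content and length, to -0.080, -0.020 and 0.022. Over the 4 libraries the range from lowest to highest had a median of 0.44 in proteases, 0.32 in glycosidases and 0.31 in membrane proteins, against 0.34 in the 27 members tested and 0.39 in all 9314 genes. A range of 1 or more was reached by 3.70% of members tested and 9.28% of all genes.

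The libraries were also compared by whether their values overlapped. Both Tut1-labelled libraries were above the other 2 for Ctsb, Ctsd, Ctsh, Lamp1 and Tfeb (4 of 27 members tested, all genes 15.3%) and below them for Glb1, Man2b1, Galc and Grn (4 of 27, all genes 17.1%). Both Trp53-labelled libraries were above the others for Ctsl, Gaa, Gla and Tfe3 (3 of 27, all genes 14.2%) and below for Ctsf, Tpp1, Ppt1, Scarb2 and Mcoln1 (5 of 27, all genes 13.4%). All 3 Cre-treated libraries were above the control in 12 of the 30 genes and 10 of 27 tested, against 17.5% of all genes, and below it in 5 (all genes 29.6%). With other scalings and pseudocounts the first of these counts was 12 to 15 (all genes 17.5% to 23.7%) and the second 2 to 5 (all genes 21.7% to 29.6%). This last split rests on 1 control library, which was the lowest of the 4 for 12 of the 30 genes, and Cre, genotype and library cannot be told apart in it.

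Base composition moved with the differences in some comparisons. Across genes, which are not independent replicates, the Spearman correlation between the difference and the GC content of the longest annotated transcript was 0.43 over 8250 protein-coding genes in Tut1 KO minus control and 0.53 over the 30 members, which share the same 2 libraries. Between double KO and Trp53 KO it was -0.22 and -0.33, and between double KO and Tut1 KO -0.49 and -0.43. Trp53 KO minus control gave 0.17 and 0.34, and double KO minus control -0.05 and 0.07. The members had a median GC content of 51.7% (38.3% in Galc to 63.2% in Tfeb), near the 49.7% of all protein-coding genes tested. GC-poor members such as Galc, Lamp2 and Asah1 were below 0 in Tut1 KO minus control, and GC-rich ones such as Ctsf, Ctsd and Ctsz above it, though the GC-rich Grn was below. The part of GC content in these differences was not tested. After a fit on GC content and length was removed, 26 of 30 members were above 0 in that comparison, with a median of 0.21, and 7 members turned from below to above 0. These were Galc, Lamp2 and Ctsl, at 0.10, 0.23 and 0.27, Scarb2 and Tfe3, at 0.19 and 0.12, and Tpp1 and Man2b1, at 0.070 and 0.017.

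**Figure D3:**
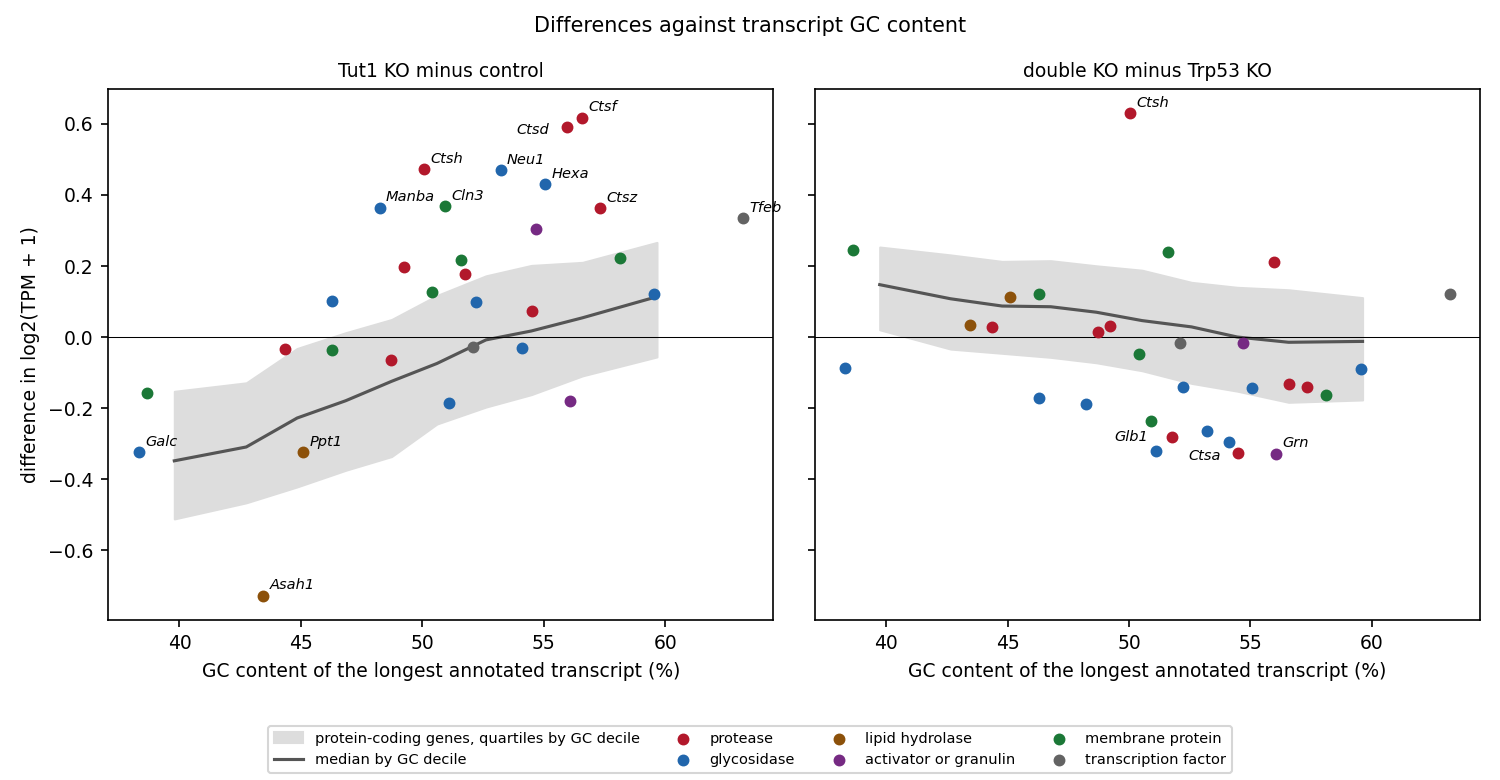
Difference in log2(TPM + 1) against the GC content of the longest annotated transcript (%) for the 30 genes, coloured by class, in both comparisons of the Tut1 label. The grey line and band give the median and quartiles of protein-coding genes by decile of GC content, which climb with GC in the first panel and decline in the second, and Asah1 lies below the band in the first.

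Of 126 further genes of the lysosome and autophagy, 93 to 97 were tested per comparison. In Tut1 KO minus control 0 were called higher and 2 lower (all genes 1.48% and 2.61%), while 1 was higher and 3 lower between double KO and Trp53 KO (1.41% and 1.79%). Trp53 KO minus control had 1 in each direction (1.92% and 1.91%), double KO minus Tut1 KO 0 higher and 1 lower (2.13% and 1.77%), and double KO minus control 0 and 3 (1.46% and 1.85%). In Tut1 KO minus control the further genes tested had a median of -0.02 with 42 of 97 above 0, where all genes had -0.09 and 39.3%. Their median was 0.03 between double KO and Trp53 KO (52 of 96 above 0, all genes 0.05), and -0.08 between Trp53 KO and control (38 of 96, all genes -0.05). It was 0.04 between double KO and Tut1 KO (52 of 93, all genes 0.09), and -0.0029 between double KO and control (47 of 96, all genes -0.0010). For Tut1 KO minus control by list, the median was -0.13 in other membrane proteins and transporters (4 of 16 above 0), -0.28 in mannose 6-phosphate sorting (1 of 7) and 0.02 in other hydrolases and activators (13 of 22). Among the 17 of 18 V-ATPase subunits tested no gene was called in any comparison, and Atp6v1g1, the most abundant by its mean, was at 224, 223, 243 and 250.1 TPM. Other abundant genes of these lists also varied little, as Laptm4a, a transmembrane protein, at 291, 347, 284 and 324 TPM and Gabarap, an autophagosome protein, at 266, 334, 292 and 307 TPM. Npc2, which carries cholesterol, was at 142, 154, 190.02 and 169 TPM, and Gnptg, a subunit of the enzyme that makes the mannose 6-phosphate tag, at 71.1, 65.2, 62.9 and 60.7 TPM. Ywhaz, a 14-3-3 protein, was at 221, 217, 388 and 228 TPM, high in the Trp53 KO.

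Of the 126 further genes, 5 were called in any of the comparisons. By a wider rule, a range of 1 or more over the libraries, 9.28% of the 9314 genes tested passed. That rule also takes in Tut1 KO against Trp53 KO, and Lamtor3 passed it without being called, at 67.1, 79.4, 34.1 and 66.1 TPM. Flcn, the folliculin GTPase-activating protein that controls TFEB and TFE3 through mTORC1, was at 20.4 TPM in control cells and 8.53 TPM in the Tut1 KO. The Trp53 KO had 19.2 TPM and the double KO 8.67 TPM. It was lower in both comparisons of the Tut1 label (-1.17 and -1.06), and with a pseudocount of 5 these became -0.91 and -0.83. Gga3, an adaptor that sorts mannose 6-phosphate receptors, was at 16.7, 6.84, 14.6 and 6.80 TPM. Its differences were -1.17 and, just short of the threshold, -0.999, which became -0.87 and -0.73 with a pseudocount of 5. With a pseudocount of 0.1 and the other scalings the second was -1.09 to -1.02, past the threshold. Flcn stayed past it in both comparisons under those settings. Both genes were thus lower with the Tut1 label in both backgrounds. With the pseudocount of 1 and no rescaling Flcn was past the threshold in each, as 0.29% of all genes were, and Gga3 in 1.

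The other 3 followed 1 library. Laptm4b was at 128, 126, 131 and 49.0 TPM, low in the double KO alone, with -1.40 against the Trp53 KO and -1.34 against the Tut1 KO. Atg7, the E1-like enzyme of autophagy, was at 41.8, 31.2, 10.8 and 42.9 TPM and low in the Trp53 KO alone, by -1.86 against the control. Uvrag, a regulator of the autophagic lipid kinase, was at 4.37, 2.08, 11.1 and 2.94 TPM, high in the Trp53 KO and close to the 10 TPM minimum. Its 1.17 in Trp53 KO minus control fell short of the threshold, at 0.78, with a pseudocount of 5. Its -1.62 in double KO minus Trp53 KO became -1.02.

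**Figure D4:**
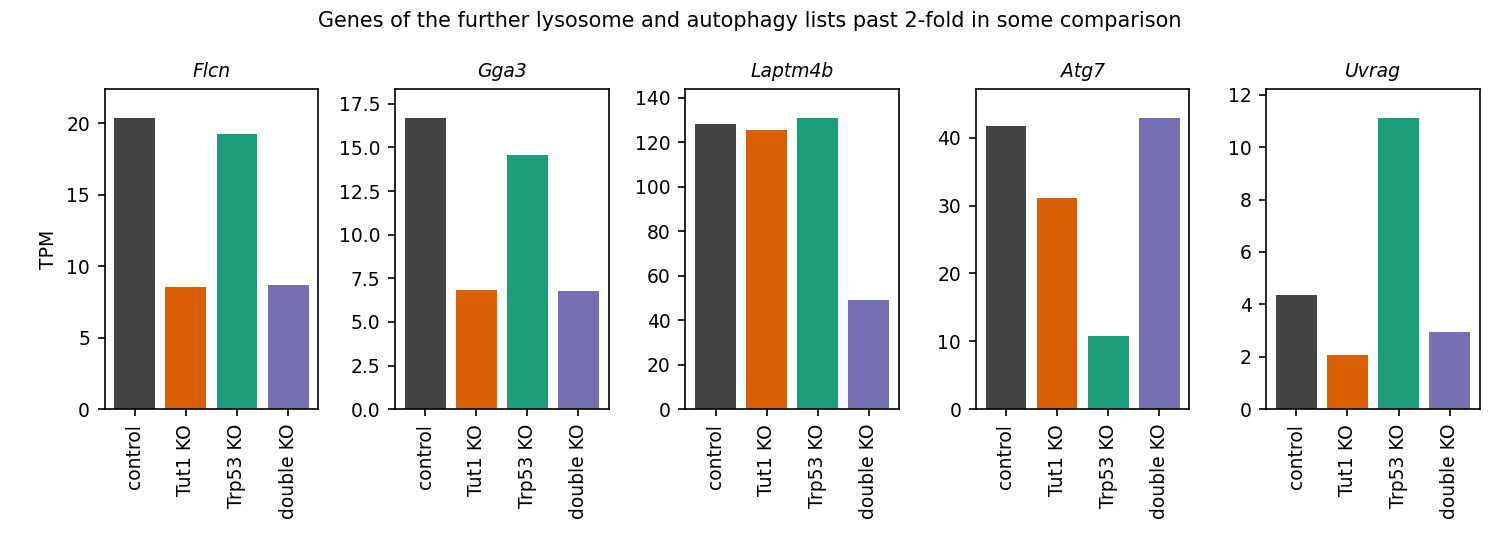
TPM (bars from 0, each panel with its own scale) of the 5 further lysosome and autophagy genes called in any comparison, 1 library per bar. Flcn and Gga3 are low in both Tut1-labelled libraries, Laptm4b in the double KO, and Atg7 and Uvrag stand apart in the Trp53 KO.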

How the data were processed

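RNA was extracted with Trizol and sequenced on an Illumina platform from stranded mRNA libraries, 1 per group. Per the labels, the authors used Trimmomatic, HISAT2 and StringTie with build mm10, and deposited 1 table of gene-level TPM, with no read counts, so depth, counting error and replicate error are unknown. TPM was used as log2(TPM + 1), with differences between libraries taken in 5 comparisons and called at 1 on that scale among genes with at least 10 TPM in a library compared. Fold changes on this scale understate the change of low genes. GC content, length and shared exons came from GENCODE mouse release M21, in which 99.4% of the table's gene IDs were found. Promoters came from RefSeq on GRCm38.p6. The difference calculation was tested on simulated data. Every member is named, and further genes are named where called in any comparison or highest in their list, with Lamtor3 named for its range. The members and lists, the printed sequences and the counts of libraries that did not overlap were chosen with earlier results of these data known. Computation used pandas 2.3.3 and numpy 2.4.6 in Python 3.11.15, correlations scipy 1.17.1, and figures matplotlib 3.10.9. Alternatives were pseudocounts of 0.1 and 5, no or a lower TPM minimum, quantile normalization, medians set to 0, leaving out 119 genes for ribosomal proteins or of the mitochondrial genome, correction for GC content and length, a 1.5-fold threshold, autosomal members only and protein-coding genes only.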

Additional observations from a re-analysis of the deposited data

Results flagged for a closer look

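For 5 genes, differences under the same label pointed in opposite directions in the 2 backgrounds, in comparisons that share no library, and each exceeded the median absolute deviation of all genes in its comparison. Of the 27 members with at least 10 TPM in a library, 2 met this for the Tut1 label and 4 for the Trp53 label, against 15.7% and 17.9% of 9314 genes. Manba was under that level. With 1 library per group none of these contrasts was tested. For the Tut1 label, the difference with Trp53 intact less that with Trp53 targeted came to 0.73 for Neu1 (0.47 and -0.26), 0.55 for Manba (0.36 and -0.19) and 0.61 for Cln3 (0.37 and -0.24). For the Trp53 label, the difference with Tut1 intact less that with Tut1 targeted came to 0.57 for Hexa (0.28 and -0.29), 0.73 for Neu1 (0.41 and -0.33), -0.76 for Asah1 (-0.27 and 0.49) and 0.61 for Cln3 (0.20 and -0.40). The Tut1 and Trp53 values of Neu1 and Cln3 are the same sum over the 4 libraries and count once. The sex-linked transcripts also run in opposite order within each of these pairs.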

How the results depend on the processing

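No paired analysis was possible because each group had 1 library, and for the same reason no library could be left out. The members' median ranged over the alternatives from 0.11 to 0.22 in Tut1 KO minus control, from -0.14 to -0.078 between double KO and Trp53 KO, from 0.12 to 0.19 in Trp53 KO minus control, from -0.19 to -0.092 in double KO minus Tut1 KO and from 0.047 to 0.13 in double KO minus control. Of 20 medians of members and classes 17 kept their sign. Without a TPM minimum the share of all genes called was 1.25% in place of 4.10% for Tut1 KO minus control, 1.02% in place of 3.21% for double KO minus Trp53 KO, 1.16% in place of 3.83% for Trp53 KO minus control, 1.22% in place of 3.90% for double KO minus Tut1 KO and 1.12% in place of 3.31% for double KO minus control, since genes near 0 then entered the denominator. At a 1.5-fold threshold Tut1 KO minus control had 2 members higher and 1 lower of 27, in place of 0 and 0, against 4.01% and 8.10% of all genes. Members called lower in double KO minus Tut1 KO went from 1 to 0 with a pseudocount of 5 and with GC and length correction. That correction moved the membrane protein median of Trp53 KO minus control from -0.068 to 0.022. Between double KO and Trp53 KO the membrane protein median of 0.037 became -0.020 with the correction and -0.013 with medians set to 0, and the protease median of 0.013 became -0.080, -0.037 and, with quantile normalization, -0.014. These medians were close to 0 and carry no direction. Among single-gene values 13 moved by more than the median absolute deviation of genes in their comparison, 9 with the correction and 4 with a pseudocount of 5, and 1187 did not. The cause was not tested.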
